A study of Homo sapiens with 9 samples.

Results

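Messenger RNA levels of 37 lysosomal genes were compared in cultured human cells in which OPA1 had been knocked down, in knock-down sets called N_30 and N_28, and in control cells. The genes encode 12 cathepsins, 9 glycosidases, 3 sulfatases, 4 other hydrolases, 3 soluble cofactors or carriers and 6 membrane proteins. They were taken by name, as the rows of the deposited count table whose Ensembl identifier maps to a listed symbol. The list and its classes were chosen with earlier results of these data known. All 37 were found among 60448 rows, and all 37 were among the 15019 genes that passed the expression filter. The 2 knock-down sets lay on opposite sides of control in the summed level of the cathepsins. In N_28, 6 cathepsins fell to between 73.3% and 84.95% of the control mean. In N_30, CTSA and CTSD rose above control, while CTSB, CTSC and CTSZ stood at 103.4%, 103.6% and 103.0% of the control mean. Against N_28 the N_30 libraries were higher for 14 of the 37 genes and lower for 1. These counts are of genes with an adjusted p under 0.05. Of all 15019 genes, 5.75% fell in N_28 and 0.459% rose in N_30 by the same rule, each against control. Between the knock-down sets, 9.38% of all 15019 genes had the higher level in N_30 and 8.96% had it in N_28.

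The data are RNA-seq counts from 9 libraries of total RNA, 3 for N_30, 3 for N_28 and 3 for control. The cell line is labelled Huh7, a line from a human liver cancer, and it was grown in DMEM. OPA1, the gene targeted by lentivirus, encodes a GTPase related to dynamin that fuses inner mitochondrial membranes and shapes the cristae. The labels carry the same lentivirus treatment for control libraries as for the knock-downs, and they explain neither the names N_30 and N_28 nor what the controls received. Separate cultures for the 3 libraries of each group are not stated either, so p-values speak only of spread among these libraries, which may be technical.

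Lysosomes are acidic organelles that break down proteins, glycans, lipids and nucleic acids delivered by endocytosis and autophagy. Their soluble hydrolases are made in the endoplasmic reticulum, most are tagged with mannose 6-phosphate in the Golgi, and many become active only after proteolytic cleavage at low pH. Many lysosomal genes are regulated together by the MiT/TFE transcription factors, among them TFEB and TFE3, which bind E-box sequences built around CACGTG in their promoters. Inherited loss of single hydrolases, cofactors or membrane proteins causes the lysosomal storage diseases.

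The OPA1 counts followed the labels. OPA1 had 64.2, 63.3 and 65.9 CPM (counts scaled to the TMM-adjusted library size) in N_30, 53.3, 55.7 and 57.8 CPM in N_28, and 82.8, 92.9 and 90.5 CPM in control. The knock-down libraries lay below all control libraries, at 72.7% of the control mean in N_30 and 62.6% in N_28, and N_30 lay above N_28. The log2 fold change of OPA1 was -0.46 in N_30 against control (adjusted p = 0.00221) and -0.68 in N_28 against control (adjusted p = 1.38e-05) by the edgeR quasi-likelihood test (Benjamini-Hochberg adjustment). N_30 exceeded N_28 by 0.21 (adjusted p = 0.0265, same test).

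Total counts per library ranged over 16476389 to 22400589 in N_30, 18316731 to 22863328 in N_28 and 19510555 to 22164035 in control, and 3 counts in the smallest library equal 0.182 CPM, a floor for counting error only. The liver markers went against the label. Of 10 liver genes, 4 averaged at least 1 CPM in N_30, 1 in N_28 and 2 in control, and ALB, the gene of serum albumin, averaged 0.346 CPM in N_30, 0 in N_28 and 0.0788 CPM in control. The sum of the liver genes ran from 11.9 to 17.4 CPM in N_30, 6.10 to 7.68 CPM in N_28 and 10.02 to 13.3 CPM in control, and of 4 tested, 3 (TF, SERPINA1 and FGB) were called higher in N_30 than in N_28. TF, the transferrin gene, averaged 5.21 CPM in N_30, 0.446 CPM in N_28 and 4.01 CPM in control, and SERPINA1, the antitrypsin gene, 1.41, 0.101 and 0.729 CPM. Both fell in N_28 against control (adjusted p = 0.000609 and 0.0224, edgeR quasi-likelihood test). APOB, the apolipoprotein of hepatic lipoproteins, had no read in any library, which leaves its level below the floor. The cells are therefore named by their group labels only. None of 8 macrophage markers reached a mean of 1 CPM in any group, with sums of 1.01 to 1.75 CPM in N_30, 1.06 to 1.92 CPM in N_28 and 1.03 to 1.53 CPM in control, and CD163 was at 0 throughout. Of 6 fibroblast markers, 2 averaged at least 1 CPM in each group, and their sum ran from 107 to 179 CPM in N_30, 38.9 to 75.1 CPM in N_28 and 62.3 to 92.3 CPM in control. The liver and fibroblast sums thus put N_30 above N_28, as the cathepsins do. The fibroblast sum came mostly from COL1A1, with means of 127 CPM in N_30, 50.9 CPM in N_28 and 71.7 CPM in control, while LUM was at 0 in every library. The part of these markers in the results was not tested. The libraries numbered 3 stood apart from the others of their group on the second principal component, which held 13.9% of the variance.

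Per kilobase of exon, the 37 genes spanned more than 3 orders of magnitude, and the order of levels was led by PSAP, the precursor of the saposins that help hydrolases reach their sphingolipid substrates. PSAP averaged 625 ± 40.4 CPM per kilobase in N_30, 495 ± 15.7 in N_28 and 574 ± 53.9 in control (SD, n = 3 each). CTSZ, a carboxypeptidase, followed with 158.5, 127 and 154 CPM per kilobase in N_30, N_28 and control. CD63, a tetraspanin of late endosomes and lysosomes, and GRN, the progranulin gene, came next with 150 and 125 CPM per kilobase in control, and CTSZ, CD63 and GRN were not separated between neighbours in the control libraries. Below GRN, LAMP1 at 63.0, CTSB at 52.5 and CTSD at 42.5 CPM per kilobase in control were separate from each other in those libraries, while CTSD overlapped with GAA at 32.7. From PPT1 at 21.7 down to ASAH1 at 7.94 CPM per kilobase in control, each of the 18 genes overlapped with its neighbour in the order. At the lower end were CTSS, HEXA and CTSO with 0.943, 0.683 and 0.0964 CPM per kilobase in control. Merged exon lengths of GENCODE genes served as the lengths, and they overstate the transcript for genes with many annotated isoforms.

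**Figure D1:**
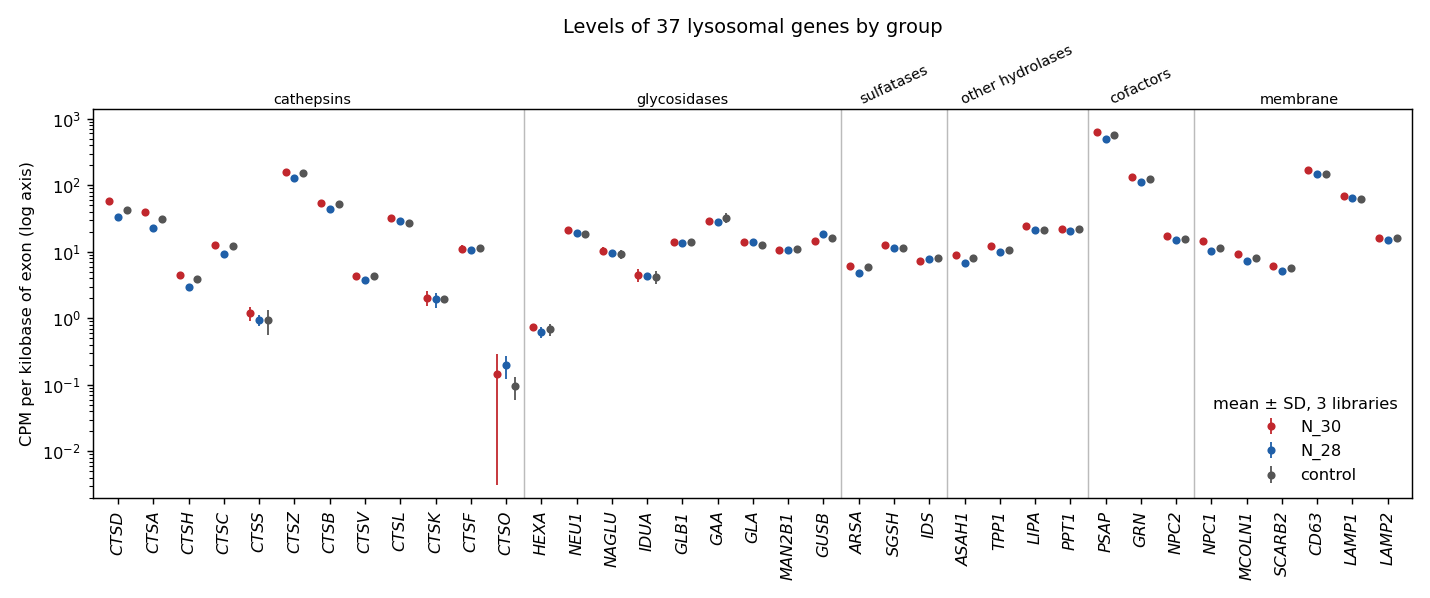
Mean CPM per kilobase of merged exon (log axis) of the 37 lysosomal genes by class, with N_30, N_28 and control from left to right within each gene; bars are the SD over 3 libraries. PSAP is highest at 625, 495 and 574 CPM per kilobase in N_30, N_28 and control, and CTSO, at 0.146, 0.199 and 0.0964, has an SD nearly as large as its mean in N_30.

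Among the class medians of the control levels, the 3 cofactors stood at 125 CPM per kilobase, the other hydrolases at 16.1, the membrane proteins at 13.7, the glycosidases at 12.7, the cathepsins at 11.8 and the sulfatases at 8.16. The cathepsins had the widest range, 0.0964 to 154 CPM per kilobase in control. CTSK, the collagenolytic cathepsin of osteoclasts, and CTSO, a little-studied cysteine cathepsin, were the only genes under 5 CPM in all 3 group means. CTSO averaged 0.431 CPM in N_30, 0.587 CPM in N_28 and 0.285 CPM in control, near the floor, and its differences cannot be read at this depth.

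The cathepsins held the largest differences. Named for proteases of the lysosome, the class covers the serine carboxypeptidase CTSA, the aspartic protease CTSD and 10 cysteine proteases. In N_28, 6 of the 12 fell against control, and 0 of the 25 other lysosomal genes were called by edgeR, with 1 of the 25 higher and 7 lower at an unadjusted p under 0.05 and 1 called lower by DESeq2. In N_30, 2 of the 12 rose against control. No cathepsin was called in the other direction in either set by edgeR or DESeq2, and 0 moved that way at an unadjusted p under 0.05. Of all tested genes, 10.2% were called in N_28 against control, 4.49% higher and 5.75% lower, and 0.866% in N_30 against control, 0.459% higher and 0.406% lower. At an unadjusted p under 0.05, 1711 of the 15019 were higher and 1878 lower in N_28, and 851 higher and 865 lower in N_30. DESeq2 called 704 of them higher and 847 lower in N_28, and 130 higher and 126 lower in N_30.

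CTSD had 189, 177 and 184 CPM in N_30, 104, 97.8 and 106 CPM in N_28, and 146, 133 and 119 CPM in control. The 3 groups did not overlap, with N_30 highest and N_28 lowest. The log2 fold change was 0.46 ± 0.07 (SE) in N_30 against control (adjusted p = 0.00633) and -0.37 ± 0.07 in N_28 against control (adjusted p = 0.00408) by the edgeR quasi-likelihood test (Benjamini-Hochberg adjustment). Both calls held in all 16 alternative analyses. CTSD lies on chromosome 11 at positions 1752752 to 1764573 on the minus strand (GRCh38). An antisense gene, AC068580.3, shares 493 exon bases with it but had 157 counts in all libraries, against 25406 for CTSD. AC068580.4, a protein-coding gene on the same strand, shares 1304 exon bases with CTSD and had 0 counts. How reads in these shared bases were counted is unstated, which limits the CTSD level.

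CTSA, which also stabilises the enzymes encoded by GLB1 and NEU1 in a complex, had 228.5, 234 and 225 CPM in N_30, 138.5, 123 and 138 CPM in N_28, and 195, 175 and 174 CPM in control. Again no library of one group entered the range of another, and the order of the groups was the same as for CTSD. CTSA rose by 0.34 ± 0.06 (log2, SE) in N_30 (adjusted p = 0.0247) and its log2 fold change in N_28 was -0.45 ± 0.07 (adjusted p = 0.000591), both against control, by the edgeR quasi-likelihood test (Benjamini-Hochberg adjustment). The call in N_30 was lost in 6 of the 16 alternatives, namely the fit of these 2 groups alone and those without the 3 libraries numbered 3, N_30 library 1 or 2, or control library 2 or 3. Over all alternatives the log2 fold change of CTSA in N_30 was 0.31 to 0.39 and the adjusted p in these tests reached 0.124. The gene spans positions 45890144 to 45898820 of chromosome 20, on the plus strand. It shares 1038, 430 and 200 exon bases with NEURL2, AL008726.1 and PLTP on the opposite strand. These had 39, 7 and 45 counts in all libraries, against 33077 for CTSA. How reads in the shared bases were counted is unstated, which limits the CTSA level.

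CTSC, CTSZ and CTSB were lower in N_28 with little difference between N_30 and control. CTSC, or dipeptidyl peptidase I, which activates serine proteases of granulocytes, had 154.5, 142 and 138 CPM in N_30, 106, 109 and 99.9 CPM in N_28, and 144, 145.5 and 131 CPM in control. All N_28 libraries lay below all others, while N_30 and control overlapped. The log2 fold change of CTSC was 0.05 in N_30 (adjusted p = 0.835) and -0.42 ± 0.06 in N_28 (adjusted p = 0.000811) against control by the edgeR quasi-likelihood test (Benjamini-Hochberg adjustment), and the fall in N_28 was called in all 16 alternatives.

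CTSZ had 322.5, 314 and 333 CPM in N_30, 253, 258 and 263 CPM in N_28, and 351, 293 and 297 CPM in control. CTSB, a cysteine protease with endopeptidase and carboxydipeptidase activity, had 404, 400 and 405 CPM in N_30, 320 to 342 CPM in N_28, and 424, 384 and 362 CPM in control. For both genes the N_28 libraries were below all libraries of the other groups, and control library 1 was the highest of the 9. In N_28 the log2 fold change against control was -0.28 ± 0.07 for CTSZ (adjusted p = 0.0167) and -0.24 ± 0.06 for CTSB (adjusted p = 0.0266), and in N_30 it was 0.04 and 0.05 with adjusted p of 0.88 and 0.839, all by the edgeR quasi-likelihood test (Benjamini-Hochberg adjustment).

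CTSH, an aminopeptidase that also processes surfactant proteins in the lung, was expressed at a lower level. It had 27.8, 27.8 and 23.6 CPM in N_30, 18.2, 16.6 and 17.9 CPM in N_28, and 23.7, 24.4 and 19.9 CPM in control. The N_28 libraries were the lowest, and N_30 and control overlapped by N_30 library 3. Its log2 fold change was 0.22 in N_30 (adjusted p = 0.403) and -0.36 ± 0.10 in N_28 (adjusted p = 0.0329) against control by the edgeR quasi-likelihood test (Benjamini-Hochberg adjustment). The N_28 calls of CTSB, CTSH and CTSZ were each lost when control library 1, N_28 library 1 or N_28 library 2 was left out. CTSB and CTSH also lost theirs without N_28 library 3, and CTSH without control library 2, with adjusted p of up to 0.13 over the alternatives.

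**Figure D2:**
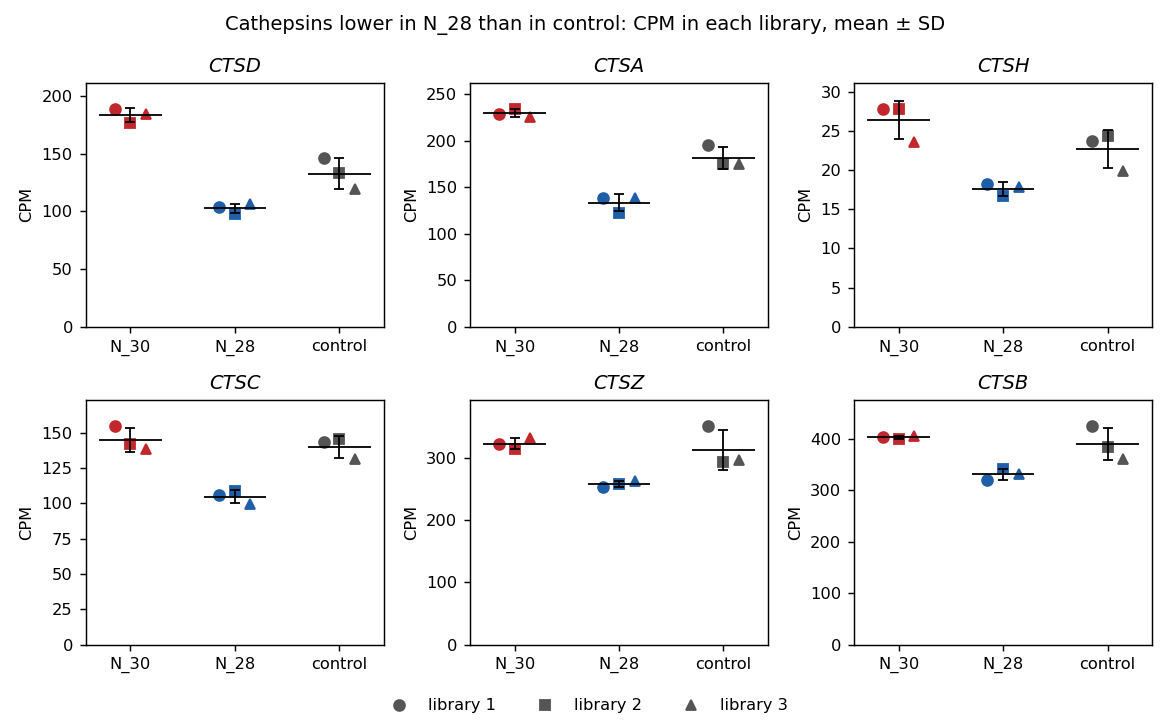
CPM in each library (symbols by library number) of the 6 cathepsins that fell in N_28, with the mean and SD of N_30, N_28 and control from left to right and axes that start at 0. The N_28 libraries lie below all control libraries in every panel, and the N_30 libraries lie above all control libraries for CTSD and CTSA.

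The other 6 cathepsins passed no test. CTSL, a broad endopeptidase, averaged 75.4 ± 8.31 CPM in N_30, 68.5 ± 8.98 CPM in N_28 and 64.0 ± 6.01 CPM in control (SD, n = 3 each). Its log2 fold change was 0.23 in N_30 and 0.10 in N_28 against control, so it did not share the lower N_28 level. CTSV, its closest paralogue, averaged 20.1, 17.9 and 20.03 CPM in N_30, N_28 and control, and its N_28 libraries were below all control libraries with an adjusted p of 0.224 by the edgeR quasi-likelihood test (Benjamini-Hochberg adjustment). Reads may be split between CTSL and CTSV, since how the authors counted similar sequences is unstated. CTSF averaged 32.2, 30.9 and 32.6 CPM in N_30, N_28 and control, and CTSS, a cathepsin of antigen-presenting cells, 5.10, 4.05 and 3.99 CPM.

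Summed over the 12 cathepsins, the level was 1473, 1433 and 1436 CPM in N_30, 1075, 1067 and 1077 CPM in N_28, and 1406, 1285 and 1224 CPM in control. The 3 groups did not overlap in this sum, and the N_28 libraries spread least. CTSA and CTSD averaged 229 and 183 CPM in N_30, against 181.5 and 133 CPM in control. CTSB, CTSC and CTSZ were at 103.4%, 103.6% and 103.0% of the control mean in N_30. The N_30 side of the sum thus rested mostly on CTSA and CTSD. In bulk RNA, less RNA per cell and fewer cells of a type cannot be told apart. The median log2 fold change of the class was 0.16 in N_30 and -0.20 in N_28 against control, and 0.30 in N_30 against N_28, beside medians of -0.0007, -0.0015 and 0.0020 over all tested genes. Opposite medians against control were not particular to the cathepsins. In N_30 and N_28 they were 0.17 and -0.10 for the other hydrolases and 0.16 and -0.12 for the membrane proteins. They were 0.12 and -0.14 for the cofactors and 0.06 and -0.06 for the sulfatases. The membrane protein sum was also above control without overlap in N_30, at 1151 to 1326 against 1045 to 1147 CPM. Both comparisons with control use the same 3 control libraries.

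The glycosidases, which remove sugars from glycoproteins, glycolipids and glycosaminoglycans, had no call against control. By edgeR, 0 of the 9 were called in either knock-down against control. At an unadjusted p under 0.05, 1 was higher in N_30, and 1 was higher and 1 lower in N_28, and DESeq2 called 0 in both comparisons. By the unadjusted rule, 851 of all 15019 tested genes were higher in N_30, and 1711 were higher and 1878 lower in N_28. The class median was 0.10 in N_30 and 0.01 in N_28 against control, and the sum of the 9 ran from 516 to 529 CPM in N_30, 504 to 518 CPM in N_28 and 491.5 to 579 CPM in control. These ranges overlapped. With 5.75% of all tested genes called lower in N_28 and 0.459% higher in N_30, a count of 0 among 9 genes is near the background, and the classes were not tested against each other. In N_30 against N_28, 8 of the 9 had a log2 fold change above 0.

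GUSB, the beta-glucuronidase that acts on glycosaminoglycans, was the only one of the 37 genes called lower in N_30 than in N_28. CTSO, near the floor, and IDS also lay below 0 in this comparison, without a call. It had 60.7, 53.9 and 58.8 CPM in N_30, 69.4, 75.1 and 75.8 CPM in N_28, and 71.1, 58.4 and 61.1 CPM in control. All N_30 libraries lay below all N_28 libraries, and the control libraries overlapped both. GUSB was lower in N_30 than in N_28 by a log2 fold change of -0.35 ± 0.08 (adjusted p = 0.00719, the edgeR quasi-likelihood test (Benjamini-Hochberg adjustment)), and this call held in all 16 alternatives. Against control its log2 fold changes were -0.14 in N_30 and 0.21 in N_28, with adjusted p of 0.549 and 0.108 in the same test.

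GAA, the acid alpha-glucosidase that degrades glycogen, averaged 148 ± 7.42 CPM in N_30, 145 ± 4.20 CPM in N_28 and 168.5 ± 28.3 CPM in control (SD, n = 3 each). Control library 1 was the highest of its group, and the adjusted p was 0.477 in N_30 and 0.167 in N_28 by the edgeR quasi-likelihood test (Benjamini-Hochberg adjustment). NEU1, the lysosomal sialidase that needs CTSA for its stability, averaged 103 ± 9.49, 91.3 ± 8.52 and 90.5 ± 7.53 CPM in N_30, N_28 and control, with overlapping libraries. GLB1, the beta-galactosidase of the same complex, averaged 62.0, 59.6 and 61.9 CPM. The log2 fold changes of N_30 against N_28 were 0.18 for NEU1 and 0.06 for GLB1, beside 0.78 for CTSA. HEXA, the alpha subunit of beta-hexosaminidase, was low at 9.35, 7.86 and 8.62 CPM in N_30, N_28 and control. It shares 617 exon bases with AC009690.1 on the same strand and 1273 with AC009690.2 on the opposite strand. Reads there may not have been counted for HEXA, so its level and its place in the order are uncertain. For GLA, MAN2B1, NAGLU and IDUA, the log2 fold changes lay between -0.01 and 0.17 in N_30 and between -0.02 and 0.14 in N_28 against control. IDUA shares 534 exon bases with SLC26A1 on the opposite strand, which limits its values where counting ignored strand. MAN2B1 shares 704 and 435 exon bases with AC010422.3 and AC010422.5 on the same strand, both with 0 counts, which limits its level.

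**Figure D3:**
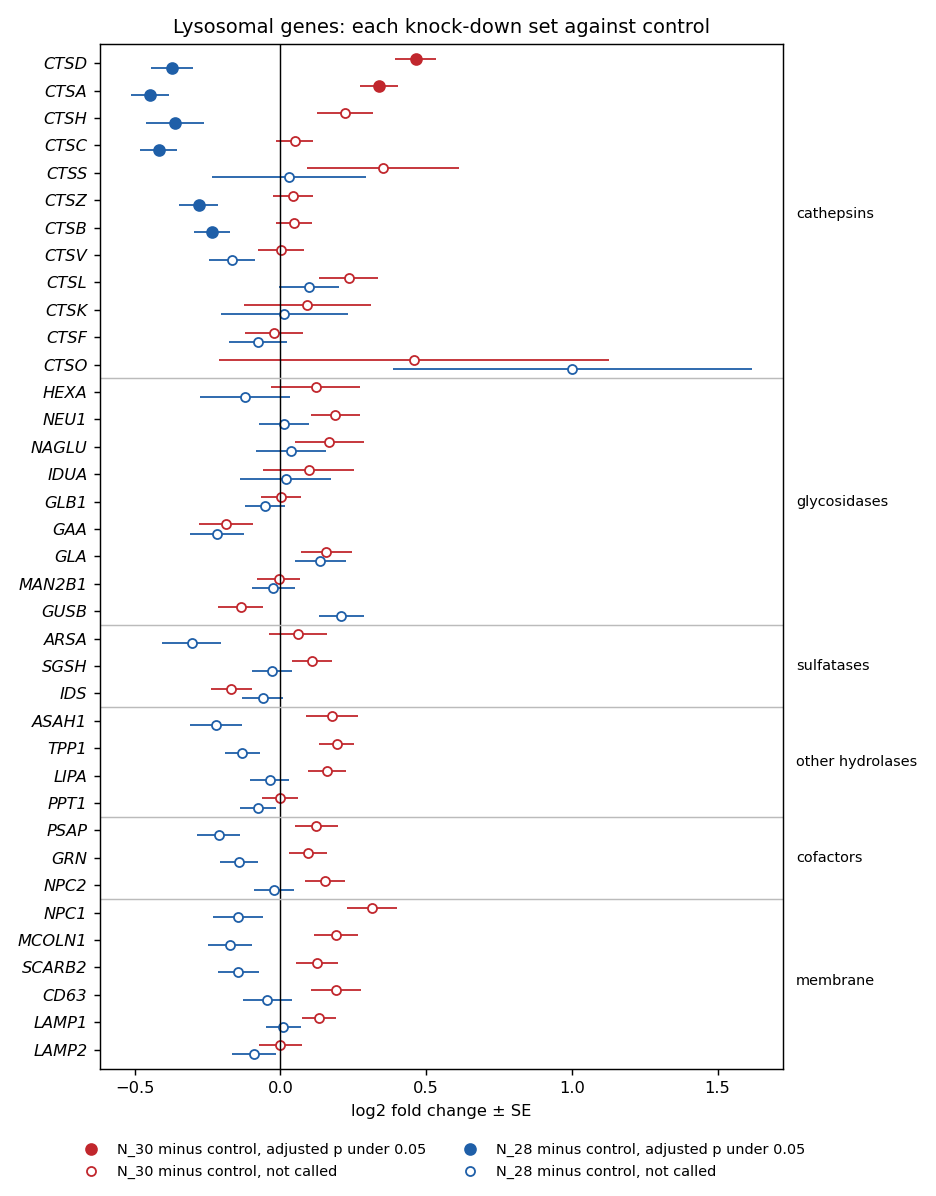
Log2 fold change with its SE of each lysosomal gene, N_30 minus control above N_28 minus control, grouped by class; filled symbols passed an adjusted p of 0.05. CTSD and CTSA are called on opposite sides of 0 in the 2 knock-down sets, the other filled symbols are cathepsins lower in N_28, and both sets share the 3 control libraries.

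Of the 3 sulfatases, the 4 other hydrolases, the 3 cofactors and the 6 membrane proteins, 0 were called against control in either knock-down by edgeR. At an unadjusted p under 0.05, N_30 was above control for 7 of these 16 genes and below it for 1, and N_28 was above control for 0 and below it for 6. Of all 15019 tested genes, 851 were higher and 865 lower in N_30 by that rule, and 1711 higher and 1878 lower in N_28. DESeq2 called 1 of the 16 higher in N_30, NPC1, and 1 lower in N_28, PSAP. Among all tested genes it called 130 higher in N_30 and 847 lower in N_28. Between N_30 and N_28, however, 8 of the 16 were higher in N_30, and 9.38% of all tested genes were called in that direction.

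Among the sulfatases, ARSA, which removes sulfate from sulfatide, had 20.4, 16.7 and 17.0 CPM in N_30, 13.7, 14.3 and 13.9 CPM in N_28, and 18.8, 15.6 and 17.3 CPM in control. The N_28 libraries were the lowest and the other groups overlapped. N_30 exceeded N_28 by 0.37 ± 0.10 (log2, SE; adjusted p = 0.0237, the edgeR quasi-likelihood test (Benjamini-Hochberg adjustment)), a call that was lost in 5 of 16 alternatives: without N_30 library 1, without any 1 of the N_28 libraries, and without the 3 libraries numbered 3. SGSH and IDS, both of glycosaminoglycan breakdown, differed by 0.14 and -0.11 between N_30 and N_28 and were not called. IDS shares 1529 exon bases with AC244197.3 on the same strand, which had 49 counts against 13151, so its level is uncertain.

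TPP1, a tripeptidyl peptidase, had 85.1, 80.7 and 75.8 CPM in N_30, 66.7, 64.4 and 62.0 CPM in N_28, and 69.3, 71.4 and 70.5 CPM in control. The 3 groups did not overlap, with N_30 highest and N_28 lowest, as for CTSD and CTSA, and the control libraries had an SD of 1.07 CPM. The log2 fold change was 0.19 in N_30 (adjusted p = 0.183) and -0.13 in N_28 (adjusted p = 0.2) against control, and 0.32 ± 0.06 in N_30 against N_28 (adjusted p = 0.0019), by the edgeR quasi-likelihood test (Benjamini-Hochberg adjustment).

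ASAH1, the acid ceramidase, had 152, 141 and 121 CPM in N_30, 112, 104 and 98.4 CPM in N_28, and 126, 131 and 109 CPM in control. The N_30 libraries lay above the N_28 libraries, and control overlapped with both. N_30 was higher than N_28 by 0.40 ± 0.09 (log2, SE; adjusted p = 0.00721, the edgeR quasi-likelihood test (Benjamini-Hochberg adjustment)). LIPA, the acid lipase of cholesteryl esters and triglycerides, averaged 118 ± 5.73 CPM in N_30, 103 ± 5.11 CPM in N_28 and 106 ± 7.02 CPM in control (SD, n = 3 each), and its difference of 0.20 between N_30 and N_28 had an adjusted p of 0.0518 in the same test. PPT1, a thioesterase that removes palmitate from proteins, averaged 110, 105 and 111 CPM in N_30, N_28 and control. It shares 1189 exon bases with CAP1 on the opposite strand, which had 85925 counts against 19883 for PPT1, so the PPT1 level is uncertain.

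Of the soluble cofactors, PSAP had 2154, 2027 and 1892 CPM in N_30, 1639, 1628 and 1546 CPM in N_28, and 2049, 1819 and 1707 CPM in control. All N_28 libraries lay below all others, and N_30 overlapped control. PSAP alone made up more CPM than the 12 cathepsins together in each library. N_30 exceeded N_28 by 0.34 ± 0.07 (log2, SE; adjusted p = 0.00557), and N_28 against control was -0.21 (adjusted p = 0.0834), by the edgeR quasi-likelihood test (Benjamini-Hochberg adjustment).

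GRN, whose product progranulin is cleaved to granulins in the lysosome and binds prosaposin, had 500.3, 486 and 491 CPM in N_30, 422, 402.5 and 429 CPM in N_28, and 511, 445 and 428 CPM in control. The knock-down sets were separate and control library 1 was the highest of all. N_30 exceeded N_28 by 0.24 ± 0.07 (log2, SE; adjusted p = 0.0233, the edgeR quasi-likelihood test (Benjamini-Hochberg adjustment)). NPC2, the soluble carrier that hands cholesterol to NPC1, averaged 47.1 ± 0.423 CPM in N_30, 41.7 ± 3.27 CPM in N_28 and 42.4 ± 2.25 CPM in control (SD, n = 3 each). Its N_30 libraries lay above all others without a call.

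Among the 6 membrane proteins, NPC1, the cholesterol exporter of the limiting membrane, differed most. It had 137, 164 and 134 CPM in N_30, 114, 103.5 and 98.1 CPM in N_28, and 117, 125 and 108 CPM in control. All N_30 libraries lay above all others. NPC1 was higher in N_30 than in N_28 by 0.46 ± 0.09 (log2, SE; adjusted p = 0.00216, the edgeR quasi-likelihood test (Benjamini-Hochberg adjustment)). Against control, N_30 was higher by 0.32 ± 0.09 with an adjusted p of 0.131, and with the library number as a block by 0.31 with an adjusted p of 0.011, both in edgeR. NPC1 shares 604 exon bases with RMC1 on the opposite strand, a gene with 3004 counts against 22292.

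MCOLN1, the mucolipin calcium channel, had 35.8, 36.3 and 37.2 CPM in N_30, 28.99, 29.7 and 26.2 CPM in N_28, and 34.7, 30.2 and 30.9 CPM in control. The 3 groups did not overlap, N_30 being highest and N_28 lowest. The log2 fold change was 0.19 in N_30 (adjusted p = 0.338) and -0.17 in N_28 (adjusted p = 0.185) against control, and 0.36 ± 0.08 in N_30 against N_28 (adjusted p = 0.00457), by the edgeR quasi-likelihood test (Benjamini-Hochberg adjustment).

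SCARB2, or LIMP-2, a glycoprotein of the lysosomal membrane, had 127, 121 and 111 CPM in N_30, 101, 102 and 95.1 CPM in N_28, and 111, 118 and 99.7 CPM in control. N_30 and N_28 were separate, and control overlapped with both. The difference of N_30 from N_28 was 0.27 ± 0.07 (log2, SE; adjusted p = 0.0182, the edgeR quasi-likelihood test (Benjamini-Hochberg adjustment)). The abundant structural proteins of the membrane were not called: LAMP1 averaged 397 ± 25.5, 364 ± 15.8 and 362 ± 1.51 CPM, and LAMP2 88.0 ± 7.68, 82.6 ± 4.54 and 88.0 ± 6.36 CPM, in N_30, N_28 and control (SD, n = 3 each). CD63 averaged 450 ± 40.2, 382 ± 40.6 and 394 ± 27.7 CPM in the same order of groups, with overlapping libraries.

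Across all 37 genes, N_30 against N_28 gave 14 higher and 1 lower calls, 40.5% of the genes, where 18.3% of all tested genes were called in either direction and 8.96% were called lower. By class, 6 of 12 cathepsins, 0 of 9 glycosidases, 1 of 3 sulfatases, 2 of 4 other hydrolases, 2 of 3 cofactors and 3 of 6 membrane proteins were higher in N_30. No glycosidase was higher at an unadjusted p under 0.05 either, and DESeq2 called 0 of them higher. Of all 15019 tested genes, 2399 were higher by the unadjusted rule and 1329 were called higher by DESeq2. The class medians of this log2 difference were 0.30 for cathepsins, 0.06 for glycosidases, 0.14 for sulfatases, 0.26 for other hydrolases, 0.24 for cofactors and 0.25 for membrane proteins. Of the 37 genes, 34 had a difference above 0, with a median of 0.18. N_30 and N_28 libraries did not overlap for 17 genes higher and 1 lower in N_30, where 18.4% and 18.1% of all tested genes were separate in these directions. The calls of ARSA, GRN, SCARB2 and MCOLN1 were lost in 5, 4, 3 and 1 of the 16 alternatives, and the other 11 were kept in all of them.

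Against control the shift of the 37 genes was small. The median log2 fold change was 0.12 in N_30, with 31 genes above 0, and -0.08 in N_28, with 27 below 0. The median deviation of the 37 genes from the control mean was 0.156, 0.130 and 0.0305 in the N_30 libraries, -0.0703, -0.105 and -0.108 in the N_28 libraries, and 0.0566, 0.0064 and -0.0914 in the control libraries, on the log2 scale with a pseudocount of 0.5 CPM. Each knock-down set overlapped control in this median, through N_30 library 3 and N_28 library 1, while N_30 and N_28 were apart. Set side by side by library number, the N_30 median exceeded the control median by 0.10, 0.12 and 0.12. This comparison was added after the data were seen, and the pairing it assumes was not tested. All 3 N_30 libraries lay above all control libraries for 7 genes and below them for 0, where 7.53% and 7.64% of all tested genes did so. All 3 N_28 libraries lay below all control libraries for 12 genes and above them for 0, where 14.6% and 14.2% of all tested genes did so. The 12 were CTSA, CTSB, CTSC, CTSD, CTSH, CTSV, CTSZ, GAA, ARSA, TPP1, PSAP and MCOLN1. The 7 were CTSA, CTSD, TPP1, NPC2, LAMP1, NPC1 and MCOLN1.

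**Figure D4:**
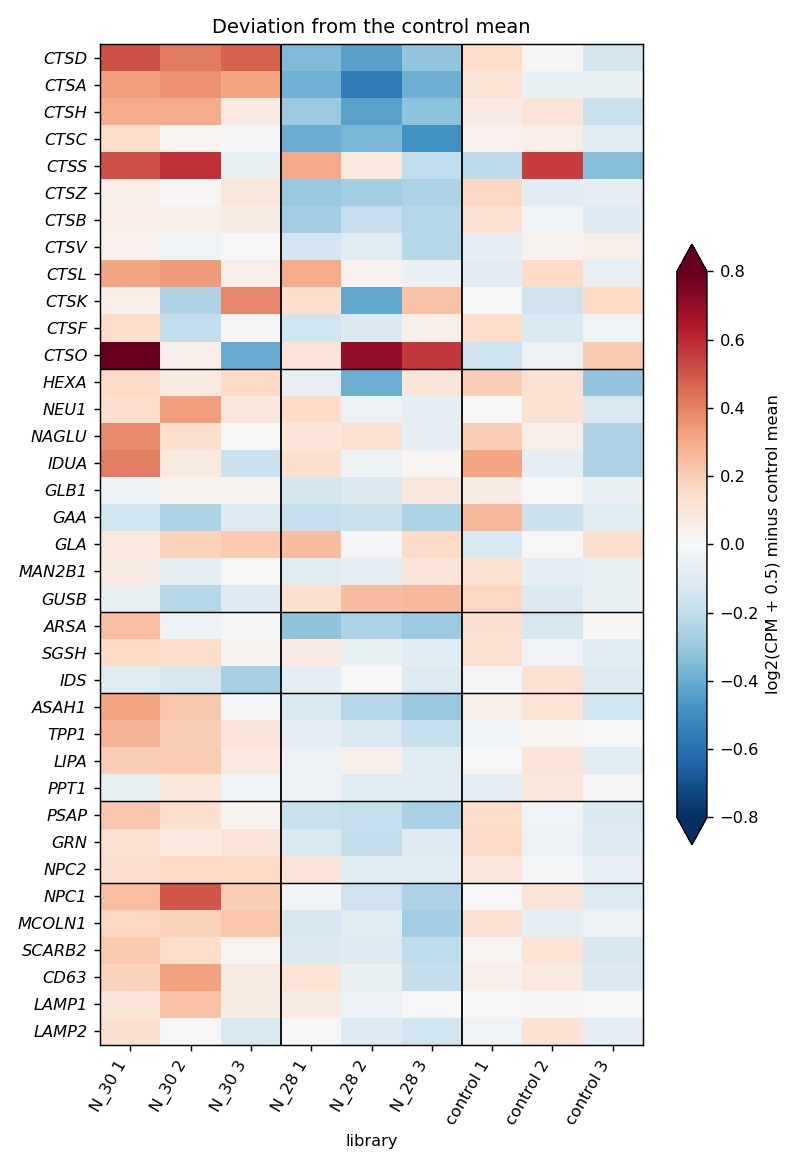
Deviation of each library from the control mean, log2(CPM + 0.5), for the 37 genes (rows, by class) in the 9 libraries, with N_30, N_28 and control from left to right. CTSD and CTSA are above 0 in all N_30 and below 0 in all N_28 libraries. So are CTSB, CTSH, CTSZ, TPP1, PSAP, GRN, SCARB2, NPC1 and MCOLN1, and GUSB is the reverse. The medians over genes run from 0.0305 to 0.156 in N_30 and from -0.108 to -0.0703 in N_28.

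The promoters of the genes were searched for the E-box at the core of the sites of MiT/TFE factors. RefSeq promoter windows (GRCh38.p14) of 250 bases before and 50 bases after the annotated start were matched for 26 of the 37 genes. The windows are shown for CTSA and CTSD, called in all 3 comparisons, for MCOLN1, for LAMP1 and GAA, which carry several copies but were not called, and for CTSC and GUSB, which were called and hold none. Each run is the 200 bases before and 20 bases after the start, 5′ to 3′ on the gene's own strand, and capitals mark CACGTG. CTSA is at chr20:45891135-45891354 (plus), CTSD at chr11:1763908-1764127 (minus), MCOLN1 at chr19:7522424-7522643 (plus), LAMP1 at chr13:113297039-113297258 (plus), GAA at chr17:80101381-80101600 (plus), CTSC at chr11:88337717-88337936 (minus) and GUSB at chr7:65982194-65982413 (minus).
CTSA: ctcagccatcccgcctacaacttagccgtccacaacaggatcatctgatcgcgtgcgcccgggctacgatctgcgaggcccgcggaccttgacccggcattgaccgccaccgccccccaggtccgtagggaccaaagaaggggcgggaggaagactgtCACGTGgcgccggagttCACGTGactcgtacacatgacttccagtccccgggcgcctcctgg
CTSD: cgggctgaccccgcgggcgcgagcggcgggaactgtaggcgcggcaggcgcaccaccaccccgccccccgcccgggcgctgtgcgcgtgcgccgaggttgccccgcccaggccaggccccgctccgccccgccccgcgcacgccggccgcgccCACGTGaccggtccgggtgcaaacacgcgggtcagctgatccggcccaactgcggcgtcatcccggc
MCOLN1: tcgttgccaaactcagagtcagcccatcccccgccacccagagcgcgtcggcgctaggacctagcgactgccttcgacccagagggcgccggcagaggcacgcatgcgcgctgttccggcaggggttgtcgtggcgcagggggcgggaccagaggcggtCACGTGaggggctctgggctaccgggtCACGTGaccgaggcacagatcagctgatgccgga
LAMP1: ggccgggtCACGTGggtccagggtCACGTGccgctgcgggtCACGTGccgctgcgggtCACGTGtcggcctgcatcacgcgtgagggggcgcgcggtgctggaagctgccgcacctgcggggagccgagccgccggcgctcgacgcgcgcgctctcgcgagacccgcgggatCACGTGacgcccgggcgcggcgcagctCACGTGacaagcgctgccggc
GAA: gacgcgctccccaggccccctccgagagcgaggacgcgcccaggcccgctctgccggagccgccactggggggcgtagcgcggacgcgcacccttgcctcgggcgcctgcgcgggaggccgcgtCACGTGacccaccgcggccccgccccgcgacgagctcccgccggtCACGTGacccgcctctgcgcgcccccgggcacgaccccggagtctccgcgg
CTSC: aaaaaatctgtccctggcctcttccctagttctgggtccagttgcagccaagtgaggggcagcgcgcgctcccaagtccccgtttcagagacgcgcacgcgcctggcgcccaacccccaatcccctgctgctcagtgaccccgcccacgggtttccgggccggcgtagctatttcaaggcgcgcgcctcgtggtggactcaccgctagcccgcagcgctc
GUSB: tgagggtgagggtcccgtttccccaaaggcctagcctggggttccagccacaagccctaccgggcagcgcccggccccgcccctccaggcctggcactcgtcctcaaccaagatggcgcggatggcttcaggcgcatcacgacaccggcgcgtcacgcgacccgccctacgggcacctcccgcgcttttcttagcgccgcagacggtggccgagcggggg

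CACGTG begins 42 and 25 bases before the start in CTSA, 47 bases before it in CTSD, and 41 and 14 bases before it in MCOLN1, while LAMP1 shows 6 copies and GAA 2. In full windows, on either strand since the motif is its own reverse complement, it was found in 8 of the 26 genes, or 30.8%: CD63, CTSA, CTSD, CTSF, GAA, LAMP1, MCOLN1 and NEU1. Of all 27305 genes with a window, 8.77% hold it. By window, the shares are 21.6% of the 37 windows of these genes and 7.26% of all 35116. The longer TCACGTGA, which contains CACGTG, was found in 4 of the 26 genes, CTSA, LAMP1, GAA and MCOLN1, or 15.4%, against 1.18% of all genes and 0.98% of all windows. The 8 genes with CACGTG had a median N_30 to N_28 difference of 0.21 on the log2 scale with 3 called. The 18 without it had 0.17 with 8 called, and the 11 with no window here 0.24 with 4 called. These are calls in either direction, and GUSB, among the 18, was the only one lower in N_30. Of all tested genes, 18.3% were called in either direction.

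Genes of the same organelle outside the 37 were counted by list. Of 30 other hydrolases and activators, N_30 was above N_28 for 7 and below it for 4, with a median log2 difference of 0.16. In the same comparison N_30 was called above N_28 for 9.38% of all tested genes and below it for 8.96%, which is the background for each of these lists. The 4 lower genes were GALC, a galactosylceramidase, at -0.40, the arylsulfatases ARSB at -0.28 and ARSG at -0.89, and SCPEP1, a serine carboxypeptidase, at -0.26. GALC also rose in N_28 against control, by 0.50. SIAE, a sialic acid esterase, GGH, a gamma-glutamyl hydrolase, and PLA2G15, a lysosomal phospholipase, were higher in N_30 than in N_28 by 0.63, 0.30 and 0.29. Among 23 other membrane proteins, 6 were higher and 1 lower in N_30, led by the chloride-proton exchanger CLCN7 at 0.52, the cystine exporter CTNS at 0.46, GLMP at 0.45 and the amino acid transporter SLC38A9 at 0.39.

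Of 21 subunits of the vacuolar H+-ATPase, the proton pump that acidifies lysosomes, N_30 was above N_28 for 9 and below it for none, with a median of 0.20. At an unadjusted p under 0.05, 11 were higher and 0 lower, and DESeq2 called 9 higher and 0 lower. Of all 15019 tested genes, 2399 were higher and 2279 lower by the unadjusted rule, and DESeq2 called 1329 higher and 1289 lower. Against control, 3 subunits fell in N_28 by edgeR, ATP6V1C1, ATP6V1E1 and ATP6V1G1, where 5.75% of all tested genes were called lower. DESeq2 called 2 subunits lower in N_28, and 847 of all 15019 tested genes. In N_30 against control no subunit was called by edgeR or DESeq2, with 3 higher and 1 lower at an unadjusted p under 0.05. By that rule, 851 of all tested genes were higher and 865 lower. ATP6V1C1 averaged 80.4 CPM in N_30, 62.9 CPM in N_28 and 83.3 CPM in control, and its N_30 to N_28 difference was 0.35, beside 0.34 for ATP6V1E1, 0.28 for ATP6V0E1 and 0.27 for ATP6V1G1. Of 17 genes that tag hydrolases with mannose 6-phosphate or sort them, 7 were higher and 2 lower in N_30. They include the adaptor subunits AP3S1 at 0.55 and AP3B1 at -0.39, GNPTG, a subunit of the phosphotransferase that makes the tag, at 0.41, and the receptor IGF2R at 0.29. Of 10 cystatins, the inhibitors of cysteine cathepsins, 2 were expressed enough to be tested, and CST3, the secreted cystatin C, was higher in N_30 than in N_28 by 0.22.

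Of 19 MiT/TFE factors and genes of nutrient sensing at the lysosome, N_30 was above N_28 for 2 and below it for 2, a share near the background of all tested genes in each direction. The called genes are given as single values. TFE3 averaged 206 CPM in N_30, 261 CPM in N_28 and 199 CPM in control. It rose in N_28 against control by 0.39 (adjusted p = 0.00101, the edgeR quasi-likelihood test (Benjamini-Hochberg adjustment)) and was lower in N_30 than in N_28 by a log2 fold change of -0.34, opposite in direction to the cathepsins. TFEB was low at 9.18, 7.22 and 8.22 CPM in N_30, N_28 and control and was not called, with an adjusted p of 0.127 for N_30 against N_28 in the same test. ZKSCAN3, a zinc finger repressor of lysosomal and autophagy genes, was lower in N_30 than in N_28 at -0.58. RRAGA and RRAGD, Rag GTPases that bring mTORC1 to the lysosome, were higher at 0.39 and 0.37.

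**Figure D5:**
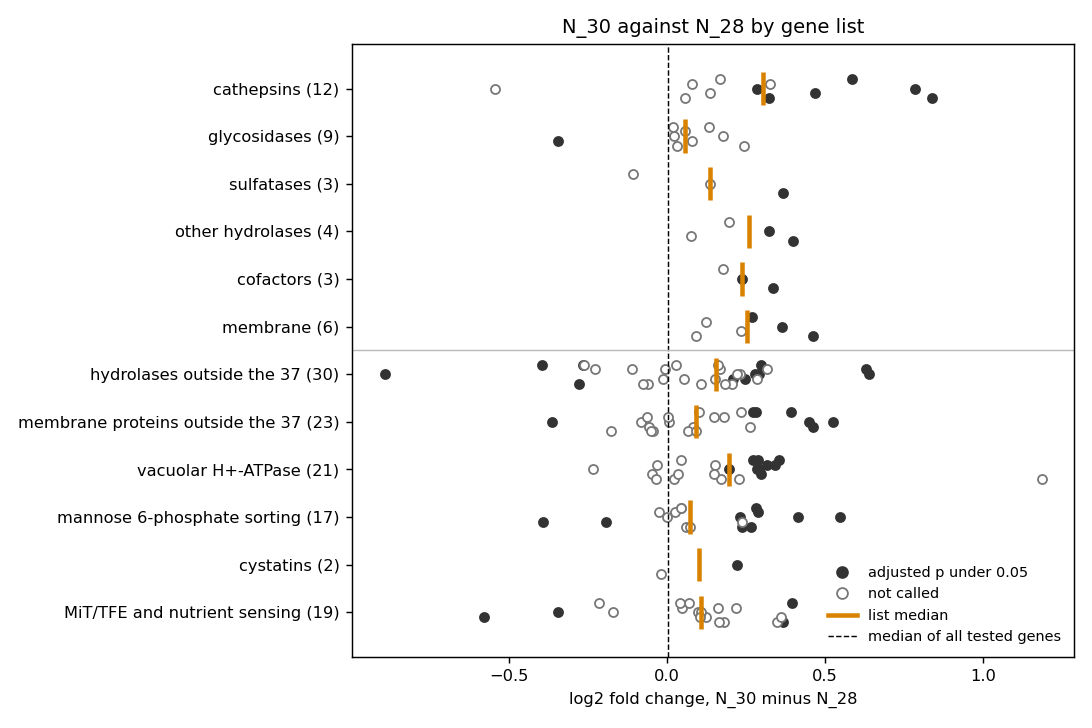
Log2 fold change of N_30 minus N_28 for each tested gene (points, filled where adjusted p is under 0.05) in the 6 classes of the 37 genes, above the line, and in 6 further lists, below it, with list medians as bars and the median of all tested genes dashed. The cathepsins have a median of 0.30, the glycosidases 0.06 and the proton pump subunits 0.20.

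Medians of whole chromosomes also moved between the knock-down sets. For N_30 against N_28 the median of all tested genes was 0.11 on chromosome 20, which holds CTSA and CTSZ, 0.0044 on chromosome 11, which holds CTSD, CTSC and TPP1, 0.10 on chromosome 15, which holds CTSH, and 0.17 on chromosome 22, which holds ARSA. It was -0.22 on chromosome 13, where LAMP1 had a difference of 0.12. The part of these shifts in single genes was not tested.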

How the data were processed

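The deposited table holds read counts per gene made by the authors, whole numbers for 9 libraries and 60448 rows with human Ensembl identifiers. Per the submitters' processing notes the build is mm8, a mouse build, which the identifiers go against. For the aligner, counter, annotation and strand setting, nothing is given in the sources used here. A gene name table gave symbols for 56434 rows and GENCODE release 29 for 434 more, and loci and exon lengths came from that release (GRCh38). Promoters came from RefSeq tables.

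Counts with a minimum of 10 (filterByExpr) were scaled by TMM, and edgeR 4.0.16 (R 4.3.3, limma 3.58.1) fitted them by quasi-likelihood over all 9 libraries, 1 term per group. P-values were adjusted by Benjamini-Hochberg over 15019 genes and called under 0.05. The common biological coefficient of variation was 0.0783, and the code was tested on simulated data. Within groups the chi-square per gene between 2 libraries was 3.64 to 12.7, above sampling noise. Deviations of same-numbered libraries of N_30 and control had correlations of 0.158, 0.429 and 0.562. These libraries were set side by side by number on that ground, a pairing which the labels do not state. Between N_30 and N_28 the correlations were 0.104, 0.0356 and 0.506, and between N_28 and control -0.0791, 0.232 and 0.312. Libraries of unlike number were not compared, so these values cannot show pairing. Pairing was not tested, and the main fit holds no term for library number.

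The 37 genes, their classes, the further lists and the tests were chosen with earlier results of these data known. By rule, genes called in any comparison are given by library, up to 8 others are named for their role, and from each further list up to 4 called genes with the lowest adjusted p in N_30 against N_28 are given. A gene of the further hydrolase list that this rule names is not reported here. Uncalled genes beyond these 8, TFEB, the 4 hydrolases lower in N_30 and the marker genes given by level were named after their values were seen. Alternatives were DESeq2 1.42.0, other filters and scalings, the 2 groups alone, the library number as a block, and leaving out libraries.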

Additional observations from a re-analysis of the deposited data

Results flagged for a closer look

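For 15 of the 37 genes the effects of the 2 knock-down sets, each against the same 3 control libraries, differed by the test of the difference itself, N_30 against N_28 in the edgeR quasi-likelihood test (Benjamini-Hochberg adjustment). On the log2 scale the N_30 effect minus the N_28 effect was 0.84 for CTSD, 0.78 for CTSA, 0.58 for CTSH, 0.47 for CTSC, 0.32 for CTSZ and 0.28 for CTSB among the cathepsins. It was 0.37 for ARSA, 0.40 for ASAH1, 0.32 for TPP1, 0.34 for PSAP and 0.24 for GRN among the other soluble proteins. Among the membrane proteins it was 0.46 for NPC1, 0.36 for MCOLN1 and 0.27 for SCARB2. GUSB alone differed in the other direction, at -0.35. Of all tested genes, 18.3% were called in this comparison. OPA1 itself was 0.21 higher in N_30 than in N_28, and its part in these differences was not tested.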

How the results depend on the processing

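In N_30 against control, 2 genes were called and 1 with only the groups compared or without the 3 libraries numbered 3 (1 to 2 on leaving out single libraries). In N_28 against control, 6 were called, and 3 to 7 on leaving out single libraries. In N_30 against N_28, 15 were called, and 12 to 17. DESeq2 gave 3, 7 and 16 calls. Of all 15019 tested genes it called 130 higher and 126 lower in N_30 against control, and 704 and 847 in N_28 against control. In N_30 against N_28 it called 1329 higher and 1289 lower. The median log2 fold change in N_28 against control was -0.08, and -0.11 where only genes averaging 5 CPM or more were kept, and -0.10 without the libraries numbered 3. Leaving out single libraries gave medians of 0.06 to 0.17 in N_30 and -0.13 to -0.064 in N_28 against control, and 0.16 to 0.24 between them. In N_30 against control, log2 fold changes near 0 turned sign, to -0.0071 for CTSB and -0.017 for CTSZ without the libraries numbered 3. On leaving out single libraries they ran from -0.0019 to 0.11 for CTSB, -0.0046 to 0.13 for CTSZ and -0.033 to 0.13 for ARSA. The replicate block raised the count in N_28 against control to 10, adding GUSB (higher), ARSA, ASAH1 and PSAP (lower). Same-numbered libraries of N_28 and control had correlations of -0.0791, 0.232 and 0.312, and whether they pair was not tested. The block added LIPA, NPC2 and CD63 in N_30 against N_28 and no call was lost. Counts over all tested genes are not given here for the block or for alternatives other than DESeq2. Whether calls rose among all genes alike is thus not shown. The cause of these moves was not tested. At this depth CTSO, CTSK and CTSS are too low for differences of the size seen elsewhere.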
